A study of Mus musculus with 29 samples.

Results

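The clustered Serpina1 and Serpina3 genes of the mouse liver were followed in 29 mice with and without Maf1, the gene of a repressor of RNA polymerase III. The group was chosen by name and place. It comprises the 5 copies of the alpha-1 antitrypsin gene (Serpina1a, Serpina1b, Serpina1c, Serpina1d and Serpina1e), the nearby Serpina3k, Serpina3m and Serpina3n, and Serpina6, which makes 9 of the 12992 genes measured. All 9 passed the filter of 1 CPM (read counts scaled to library size) in at least 1 mouse of every cohort. The mice were males labelled C57BL/6, on their diet from 4 to 5 weeks of age, and the livers were taken at 13 to 14 weeks after an overnight fast and 4 h of refeeding. The Chow-fed whole-body cohort held 7 Ctrl mice, labelled only as controls, and 5 Maf1-/- mice, which carry a constitutive deletion. The other cohorts came from 1 line in which loxP sites lie in intron 1 and in exon 8 of Maf1. In it, Maf1hep-/- mice were homozygous for the floxed allele and hemizygous for a Cre driven by the albumin promoter, so that deletion is limited to cells using that promoter, and Ctrl mice were floxed without Cre. The Chow-fed hepatocyte cohort held 4 Ctrl and 4 Maf1hep-/- mice, and the HF-fed cohort (60% of calories from lard) held 5 Ctrl and 4 Maf1hep-/- mice. Each mouse gave 1 whole-liver RNA library.

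Serpins inhibit proteases through an exposed reactive centre loop that the target protease cuts, upon which the serpin changes shape and traps the enzyme. Alpha-1 antitrypsin is a major hepatocyte secretory protein whose main target is neutrophil elastase. Humans have a single gene for it, whereas mice have several copies whose loops differ. The Serpina3 genes are the expanded mouse relatives of human alpha-1 antichymotrypsin. Serpina3k is abundant in liver and binds tissue kallikrein, and Serpina3n is a protease inhibitor that is induced in the acute phase response. Serpina6 encodes corticosteroid-binding globulin, a serpin fold that carries glucocorticoids in plasma and inhibits no protease.

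All 9 genes lie on chromosome 12 (GRCm38, GENCODE vM21) and have 5 exons in the main coding transcript. Serpina6 (chr12:103646630-103657212) and the Serpina1 copies are on the minus strand, in the order Serpina1b (chr12:103728156-103830373), Serpina1d (chr12:103763594-103773592), Serpina1a (chr12:103853589-103863562), Serpina1c (chr12:103894926-103904887) and Serpina1e (chr12:103946931-103958975). Serpina3k (chr12:104338486-104346144), Serpina3m (chr12:104338486-104394257) and Serpina3n (chr12:104406729-104414329) follow on the plus strand. The annotated span of Serpina1b covers Serpina1d, and Serpina3m is annotated from the same start as Serpina3k, so that the spans of these pairs overlap. Whether this overlap affected the counts was not tested. The 5 Serpina1 coding sequences are 1242 bases long and differ from each other at 86 of these bases (6.92%). Pairwise identity among them ran from 96.3% to 98.5%, with Serpina1a and Serpina1c the closest pair. By contrast, Serpina3k and Serpina3m were 91.6% identical over their aligned coding bases, Serpina3k and Serpina3n 82.7%, and Serpina6 was at most 54.0% identical to any of the others.

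The window that tells the copies apart is shown because every value for a single copy rests on such bases. It is the stretch of 60 coding bases with the most differences, coding bases 1101 to 1160 in exon 5, the last coding exon, in the part which encodes the reactive centre loop. Capitals mark the 18 positions at which the copies are not all the same, and each line reads 5′ to 3′ along the gene.
Serpina1a: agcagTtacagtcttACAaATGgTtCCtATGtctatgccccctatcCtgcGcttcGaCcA
Serpina1b: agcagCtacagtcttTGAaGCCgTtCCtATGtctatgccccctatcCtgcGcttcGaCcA
Serpina1c: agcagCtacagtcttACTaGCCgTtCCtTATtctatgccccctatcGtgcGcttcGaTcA
Serpina1d: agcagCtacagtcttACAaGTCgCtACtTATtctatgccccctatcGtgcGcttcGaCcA
Serpina1e: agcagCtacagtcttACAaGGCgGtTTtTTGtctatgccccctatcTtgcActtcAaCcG
Outside such windows the copies are hard to separate, and the longest run of coding sequence identical in all 5 was 226 bases (coding bases 337 to 562). Over the whole coding sequence, Serpina1e held 24 bases found in no other copy, Serpina1d 19, Serpina1b 17, Serpina1c 7 and Serpina1a 6. Of all windows of 150 bases in a coding sequence, 63.2% of those of Serpina1c and 53.0% of those of Serpina1a also occurred in another annotated gene, against 26.5% for Serpina1d, 24.2% for Serpina1b and 9.88% for Serpina1e. The share was 0.451% for Serpina3k and for Serpina3m, and no such window was found for Serpina3n or Serpina6. Because the deposited counts divide reads that fit several copies by estimation, the 5 copies were also tested as their sum, which does not depend on the division among the 5. The sum still depends on how reads shared with genes outside it are handled. Up to 10.3% of the 150-base windows of a copy (Serpina1c) occur in B430119L08Rik and up to 7.05% (Serpina1d) in Gm8893. With 100 bases the shares reached 18.55% (Serpina1c) and 17.94% (Serpina1a). With 50 bases they reached 26.15% and 48.03% for the same copies. The read length of the Chow-fed libraries is not given.

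The copies are also alike before their start sites, where the promoter sequences (RefSeq, GRCm38.p6) were matched for 6 of the 9 genes. The following 80 bases upstream of the annotated start were shared by all 5 copies but for 10 positions, given in capitals. They begin 80 to 91 bases before that start in Serpina1a to Serpina1d, but 142 bases before it in Serpina1e.
Serpina1a: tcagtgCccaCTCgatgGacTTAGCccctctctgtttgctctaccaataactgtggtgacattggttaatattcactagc
Serpina1b: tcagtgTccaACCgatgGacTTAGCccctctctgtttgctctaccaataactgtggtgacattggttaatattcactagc
Serpina1c: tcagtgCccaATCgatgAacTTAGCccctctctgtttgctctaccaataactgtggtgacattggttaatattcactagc
Serpina1d: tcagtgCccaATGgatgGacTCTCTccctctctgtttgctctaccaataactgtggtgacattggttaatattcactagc
Serpina1e: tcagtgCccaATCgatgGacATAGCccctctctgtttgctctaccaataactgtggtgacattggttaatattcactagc
Serpina1d held 5 bases there that no other copy has, Serpina1b 2, and Serpina1a, Serpina1c and Serpina1e 1 each. The letters GTTAAT, part of the sequence bound by the liver factor HNF1, occurred once in each of these promoters and not in that of Serpina3n, on either strand and counting 300 bases per promoter. Of 32851 promoters of this length, 7.10% held them. The letters TTNNGNAAT, found in many C/EBP sites, occurred 2 times in the Serpina3n promoter and once in that of Serpina1a, against 11.5% of promoters with at least 1 match. TTCNNNGAA, the core of STAT sites, occurred in none of the 6 and in 8.30% of promoters. These matches describe letters and were not tested as binding sites.

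Library totals were 48658200 to 75682300 counts in the whole-body cohort, 43564200 to 63756700 in the Chow-fed hepatocyte cohort and 25544800 to 32319700 in the HF-fed cohort, and replicates are separate mice. Maf1 was lower in every knockout than in every Ctrl mouse of its cohort. In keeping with the tissue label, hepatocyte markers summed to 86375 to 139750 CPM, while none of the lymphocyte or adipocyte markers looked for was among the genes measured. In whole liver, fewer cells of a type and less RNA per cell cannot be told apart.

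These genes formed a sizeable part of the liver transcriptome. The 9 together took 1.96% to 4.85% of a library's counts and the 5 Serpina1 copies alone 0.873% to 3.29%. Serpina3k ranked 5th of 12992 genes by mean CPM. Scaled to transcript length and averaged over the 6 groups, the levels followed the order Serpina3k (6344 CPM per kb), Serpina1e (4085), Serpina1c (3980), Serpina1b (2754), Serpina1a (2734), Serpina1d (2101), Serpina3m (196), Serpina3n (155) and Serpina6 (58.0). Some neighbours were well separated, as Serpina3k was above Serpina1e in 28 of 29 mice, Serpina1d above Serpina3m in 29 and Serpina3n above Serpina6 in 28. Others changed places from mouse to mouse. Serpina1e exceeded Serpina1c in 15 of 29 mice, Serpina1b exceeded Serpina1a in 11, and Serpina3m exceeded Serpina3n in 19. The length used matters for some of these, since per kb of coding sequence Serpina1b (3908) was above Serpina1a (2994) in 29 of 29 mice and Serpina3m above Serpina3n in 15. The plot of every gene in every mouse gives the unscaled levels.

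**Figure D1:**
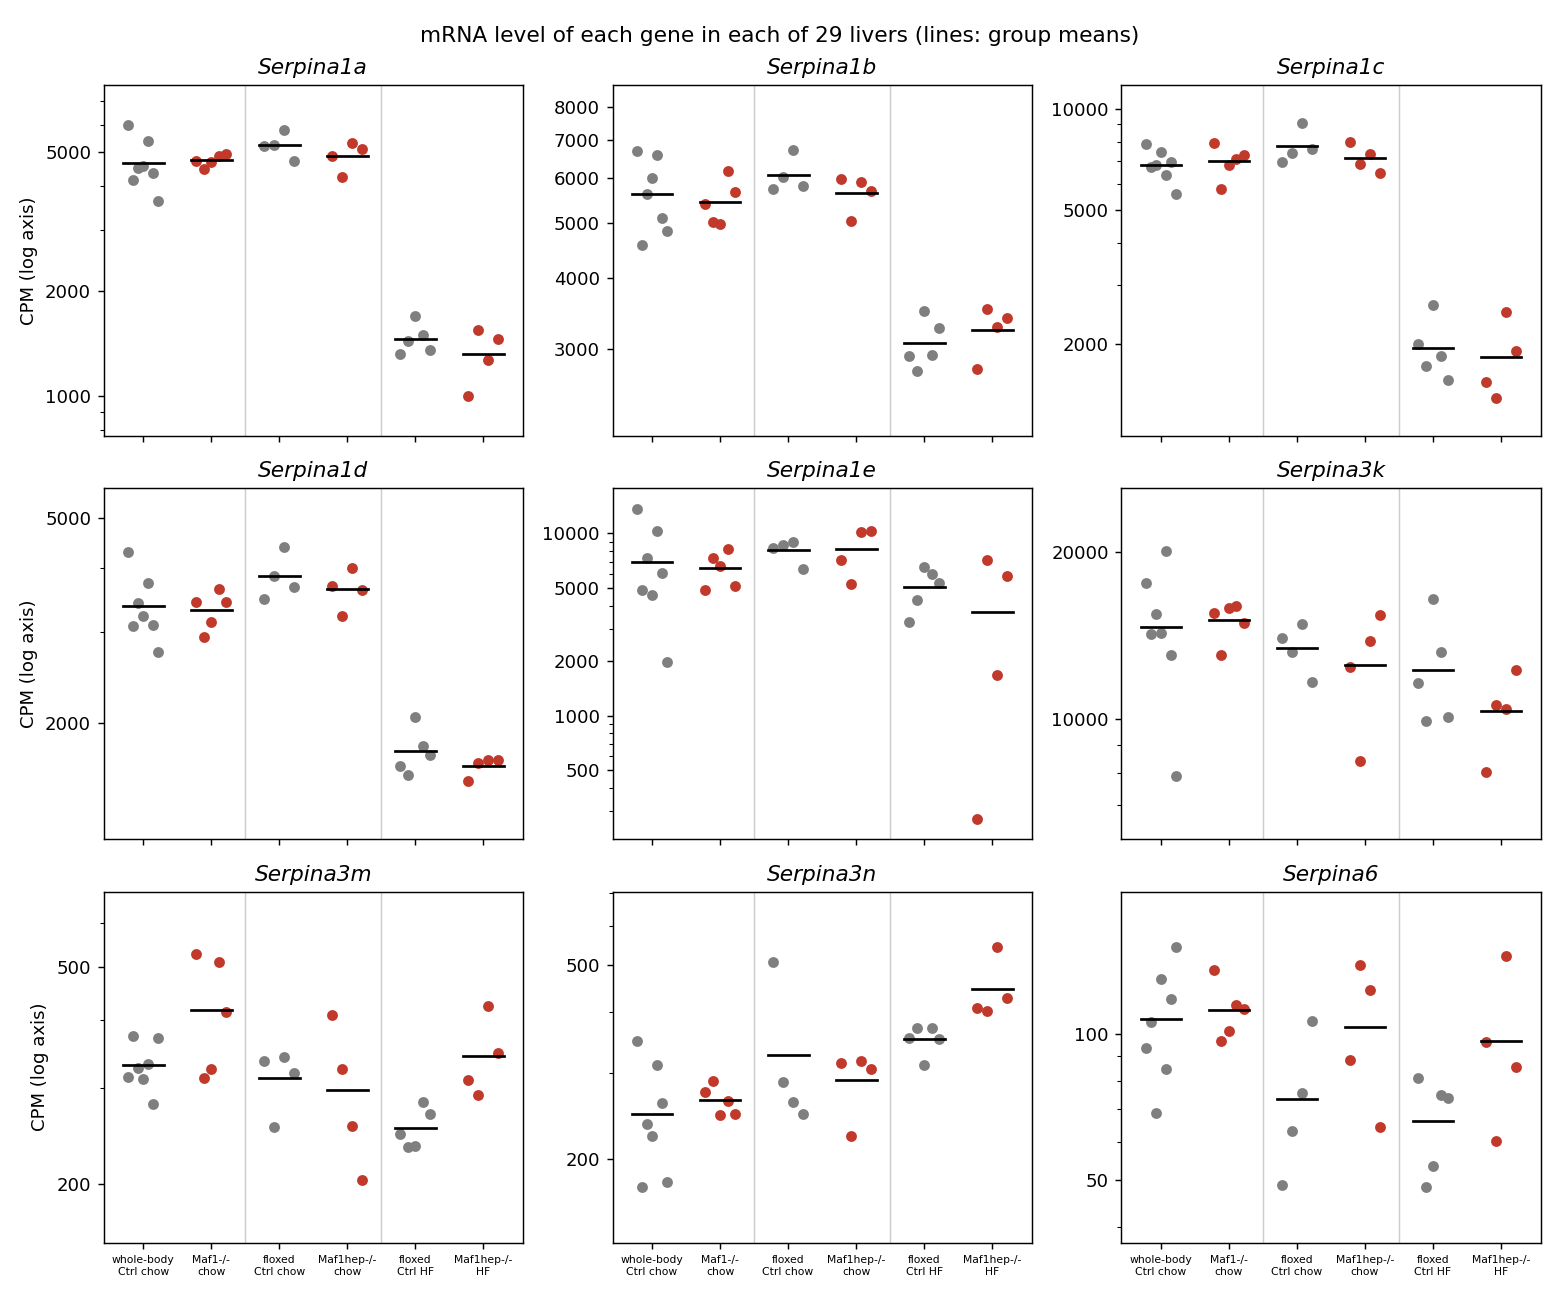
mRNA level of the 9 genes in each of 29 livers, 1 panel per gene. The vertical axis is CPM on a log axis, points are mice (grey Ctrl, red knockout), and horizontal lines are means of the 6 groups, with vertical lines between cohorts. Serpina1a, Serpina1b, Serpina1c and Serpina1d form a high Chow-fed and a low HF-fed level, while Serpina1e is scattered from 272 to 13628 CPM.

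To assess whether Maf1 loss was accompanied by a change in these mRNAs, each cohort was tested with edgeR's quasi-likelihood test and Benjamini-Hochberg adjustment over all genes of the cohort. None of the 9 genes passed an adjusted p of 0.05 in any cohort. This is to be read against the background, since the test called 0.0156% of 12796 genes in the whole-body cohort, 0.0159% of 12570 in the Chow-fed hepatocyte cohort and 0.0162% of 12378 in the HF-fed cohort, which is 2 genes each time. Without Ctrl mouse 2 it called 35.4% of 12792 genes in the whole-body cohort. The study, with limma and factors for unwanted variation, reported many more changed mRNAs in that cohort under its own cutoffs. The absence of calls there thus does not show that no member changed. At an unadjusted p under 0.05, 1 of the 9 was higher and 0 lower in Maf1-/- mice, where 10.8% of all genes were higher and 26.3% passed in either direction. In Chow-fed Maf1hep-/- mice 0 of the 9 passed (2.39% of all genes), and in HF-fed Maf1hep-/- mice 3 were higher, where 3.3% of all genes were higher and 6.04% passed in either direction. DESeq2 and limma-voom likewise called 0 of the 9 in each cohort. Their shares over all genes are not given here, so these counts say little by themselves.

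The summed alpha-1 antitrypsin copies were close to each other between genotypes. In the whole-body cohort, the sum had a median of 25818 CPM in Ctrl mice (lowest 18766, highest 38475), against 26359, 25587, 26266, 30030 and 26526 CPM in the Maf1-/- mice. The knockout values thus lay inside the Ctrl range, and the log2(FC) was 0.00 (SE 0.18, adjusted p = 0.995, edgeR). In the Chow-fed hepatocyte cohort the sum was 29656, 31222, 34953 and 28189 CPM in Ctrl mice and 29702, 24684, 32685 and 31229 CPM in Maf1hep-/- mice. These groups overlapped as well, for a log2(FC) of -0.07 (SE 0.14, adjusted p = 0.997).

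In the HF-fed cohort the sum was 11148, 11809, 16395, 14074 and 13276 CPM in Ctrl mice. It was 7124, 15263, 10410 and 14294 CPM in Maf1hep-/- mice, of which mice 1 and 3 were below every Ctrl mouse. The log2(FC) was -0.20 (SE 0.22, adjusted p = 0.945), and it was -0.017 without Maf1hep-/- mouse 1, -0.33 without Maf1hep-/- mouse 2, -0.31 without Maf1hep-/- mouse 4 and -0.11 without Ctrl mouse 3. For Serpina1a, Serpina1b, Serpina1c and Serpina1d taken singly, the log2(FC) stayed between -0.16 and 0.07 over the 3 cohorts, with standard errors of 0.11 to 0.21. A change by a factor of 2 in the estimated counts of 1 of these 4 copies would have been several standard errors in size. This does not hold for Serpina1e, whose standard error reached 0.66. The standard errors measure spread between mice and not the error from dividing shared reads among copies.

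**Figure D2:**
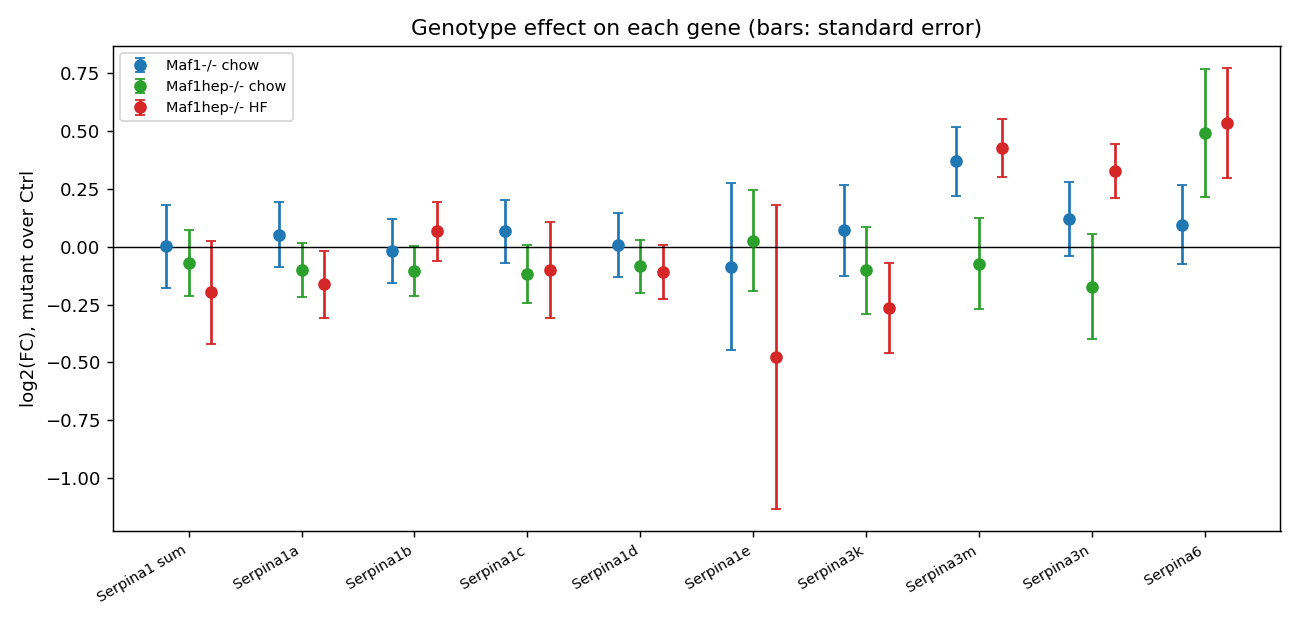
Genotype effect on each gene and on the summed Serpina1 copies in the 3 cohorts. The vertical axis is log2(FC) of knockout over Ctrl, and bars are standard errors from the edgeR fit. The 4 copies Serpina1a to Serpina1d lie between -0.16 and 0.07, the widest bar belongs to Serpina1e in HF-fed mice (log2(FC) -0.48, SE 0.66), and Serpina3m, Serpina3n and Serpina6 are above 0 in HF-fed Maf1hep-/- mice.

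Serpina3m, a close relative of Serpina3k with a far lower level, was the gene nearest to a call. In the whole-body cohort it had a median of 327 CPM in Ctrl mice (lowest 280, highest 373), against 528, 312, 324, 510 and 412 CPM in Maf1-/- mice. Mice 1, 4 and 5 of the knockout were above every Ctrl mouse and the other 2 were within the Ctrl range. The log2(FC) was 0.37 (SE 0.15, unadjusted p = 0.0280, adjusted p = 0.163, edgeR). Without Ctrl mouse 2, it was 0.42 with an adjusted p of 0.0431, and Serpina3m then passed the threshold. In that fit, however, 35.4% of 12792 genes passed, so that 1 of 9 was below the background share.

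In the HF-fed cohort Serpina3m measured 247, 234, 235, 282 and 269 CPM in Ctrl mice. It measured 310.1, 291, 424 and 347 CPM in Maf1hep-/- mice, all above the highest Ctrl mouse. The log2(FC) was 0.43 (SE 0.13, unadjusted p = 0.00632, adjusted p = 0.641). In Chow-fed hepatocyte mice, by contrast, Ctrl mice had 336, 254, 341 and 320 CPM and Maf1hep-/- mice 408, 324, 256 and 203 CPM. The knockouts there spanned a wider range on both sides of the Ctrl mice, with a log2(FC) of -0.07 (SE 0.20). The difference of the genotype effect between HF and chow was 0.51 on the log2 scale (SE 0.24, unadjusted p = 0.0472, adjusted p = 0.99996), and between the whole-body and the hepatocyte knockout on chow 0.41 (SE 0.23, unadjusted p = 0.0854, adjusted p = 0.356). Neither was called, nor was any of the 12992 genes in either contrast by edgeR, where 2.87% and 15.7% of genes had an unadjusted p under 0.05.

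Serpina3n, the acute phase member, also separated the genotypes in HF-fed mice alone. It measured 353, 371, 311, 371 and 352 CPM in Ctrl mice and 407, 402, 542 and 426 CPM in Maf1hep-/- mice. Each knockout was thus above the highest Ctrl mouse. The log2(FC) was 0.33 (SE 0.12, unadjusted p = 0.0175, adjusted p = 0.734). Genotypes that did not overlap were found for 1.75% of all genes in this cohort, 1.43% in the Chow-fed hepatocyte cohort and 0.547% in the whole-body cohort. Among the 9 genes there were 2 (Serpina3m and Serpina3n) in the first and 0 in the others.

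In Chow-fed hepatocyte mice, Serpina3n measured 507, 288, 261 and 247 CPM in Ctrl mice and 314, 222, 317 and 305.0 CPM in Maf1hep-/- mice. Ctrl mouse 1 had the highest level and knockout mouse 2 the lowest, and the log2(FC) was -0.17 (SE 0.23, adjusted p = 0.997). In the whole-body cohort, Ctrl mice ranged from 175 to 348 CPM (median 236), and Maf1-/- mice measured 274, 288, 246, 262 and 248 CPM. The knockouts were bunched within the Ctrl range, for a log2(FC) of 0.12 (SE 0.16, adjusted p = 0.620).

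Serpina6, the carrier of glucocorticoids, was the third gene with an unadjusted p under 0.05 in HF-fed mice. Its levels were 81.2, 48.4, 53.4, 74.6 and 73.6 CPM in Ctrl mice and 96.1, 60.1, 144 and 85.6 CPM in Maf1hep-/- mice. Of the knockouts, 3 were above every Ctrl mouse and mouse 2 was within their range. The log2(FC) was 0.54 (SE 0.24, unadjusted p = 0.0460, adjusted p = 0.809). On chow it was 48.8, 62.9, 75.4 and 106 CPM in Ctrl mice and 88.0, 138, 123 and 64.2 CPM in Maf1hep-/- mice, for a log2(FC) of 0.49 (SE 0.28, adjusted p = 0.997). Here knockout mice 1 and 4 were within the Ctrl range and mice 2 and 3 above it. The whole-body value was 0.10 (SE 0.17), with Ctrl mice at 68.7 to 151 CPM and Maf1-/- mice at 96.6 to 135 CPM.

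Serpina3k, the most abundant member, gave a log2(FC) of 0.07 (SE 0.20) in Maf1-/- mice, -0.10 (SE 0.19) in Chow-fed Maf1hep-/- mice and -0.26 (SE 0.19) in HF-fed Maf1hep-/- mice. In HF-fed mice it measured 11615, 9943, 16463, 13245 and 10089 CPM in Ctrl mice and 8023, 10592, 10457 and 12255 CPM in Maf1hep-/- mice. Only knockout mouse 1 was below the Ctrl range. Ctrl mouse 7 of the whole-body cohort had the lowest level of all 29 mice (7900 CPM), and Ctrl mouse 5 of the same group the highest (20065 CPM).

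Markers of other cells moved with the HF genotype comparison, and their part in the values of Serpina3m, Serpina3n and Serpina6 was not tested. The 9 hepatocyte markers measured summed to 115152 to 121265 CPM in Maf1hep-/- mice and to 94098 to 109315 CPM in Ctrl mice, without overlap. Of the 9, 3 were higher at an unadjusted p under 0.05, where 3.3% of all genes were. Of the 10 stellate cell markers 4 were higher by that rule, with sums of 440 to 539 CPM against 410.1 to 476 CPM. Of the 5 erythroid markers 3 were higher, with sums of 58.1 to 151 CPM against 54.9 to 95.2 CPM. Kupffer cell markers, summing to 314 to 645 CPM against 348 to 499 CPM, had 1 of 11 higher, and the only neutrophil marker measured was at most 4.00 CPM in any mouse. In the whole-body cohort, the stellate cell markers summed to 437 to 624 CPM in Maf1-/- mice and 362 to 504 CPM in Ctrl mice. Only 5 of these 10 had a log2(FC) above 0 (median 0.03), with 3 higher and 1 lower at an unadjusted p under 0.05. There, 10.8% and 15.4% of all genes were. Of the erythroid markers 0 of 5 were above 0 (median -0.81) and of the Kupffer cell markers 2 of 11 (median -0.22).

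Within the family, Serpina1e varied most from mouse to mouse, within groups of the same genotype and diet. In HF-fed Maf1hep-/- mice it measured 272, 7133, 1672 and 5843 CPM, from 9054, 228478, 54175 and 228337 counts. Mice 1 and 3 were below, and mouse 2 above, every Ctrl mouse of that cohort, which had 3272, 4326, 6545, 6012 and 5372 CPM. In the whole-body Ctrl group it measured 13628, 4875, 7364, 4588, 10366, 6073 and 1976 CPM, a 6.90-fold range. The Maf1-/- mice, at 4872, 7362, 6658, 8234 and 5164 CPM, were all within it. On chow, the floxed Ctrl mice had 8317, 8690, 8953 and 6375 CPM and the Maf1hep-/- mice 7181, 5310, 10138 and 10352 CPM, which overlapped.

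Over all 29 mice, Serpina1e varied 50.1-fold, against 2.46-fold for Serpina1b and 6.56-fold for Serpina1c, the latter mostly between diets. After the mean of each of the 6 groups was subtracted, the SD of its log2 CPM was 0.95, larger than that of 98.7% of the 1208 genes with a mean of at least 100 CPM. For the other 4 copies the SD was 0.15 to 0.22, for Serpina3m 0.26, for Serpina3n 0.29, for Serpina3k 0.31 and for Serpina6 0.40. The summed other 4 copies spanned only 1.16-fold to 1.48-fold within a group. HF-fed Maf1hep-/- mouse 1, with the lowest Serpina1e (272 CPM against a group median of 3757 CPM), also had the lowest Serpina1a, Serpina1b, Serpina1d and Serpina3k of its group, but by far smaller margins, as for Serpina1b (2769 CPM in a group range of 2769 to 3532 CPM).

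The genotype effect on Serpina1e rested on single mice. In HF-fed mice its log2(FC) was -0.48 (SE 0.66, adjusted p = 0.954, edgeR), and it was -0.08 without Maf1hep-/- mouse 1, -0.24 without mouse 3, -0.98 without mouse 2 and -0.79 without mouse 4. With the replicate number as a block it was -1.19 (adjusted p = 0.483). limma-voom, which works on log values, gave -1.27 for the same mice. With 3 unwanted factors estimated from residuals (RUVr), that value was -1.32 (unadjusted p = 0.00255, adjusted p = 0.0850). In the whole-body cohort the log2(FC) was -0.09 (SE 0.36) and in Chow-fed Maf1hep-/- mice 0.03 (SE 0.22).

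The makeup of the Serpina1 pool varied with Serpina1e. It supplied 10.5% to 35.4% of the summed Serpina1 counts in whole-body Ctrl mice (median 23.7%) and 18.5%, 28.8%, 25.3%, 27.4% and 19.5% in Maf1-/- mice. In HF-fed Ctrl mice it supplied 29.3%, 36.6%, 39.9%, 42.7% and 40.5%, and in HF-fed Maf1hep-/- mice 3.82%, 46.7%, 16.1% and 40.9%. Those 4 knockouts held both the lowest and the highest share of all 29 mice. The shares of Serpina1d were steadier, at 11.2% to 14.6% in whole-body Ctrl mice. Shares need no scaling between libraries but add to 100%, so that a low Serpina1e raises the others, as for Serpina1b in HF-fed Maf1hep-/- mice (23.1% to 38.9%).

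**Figure D3:**
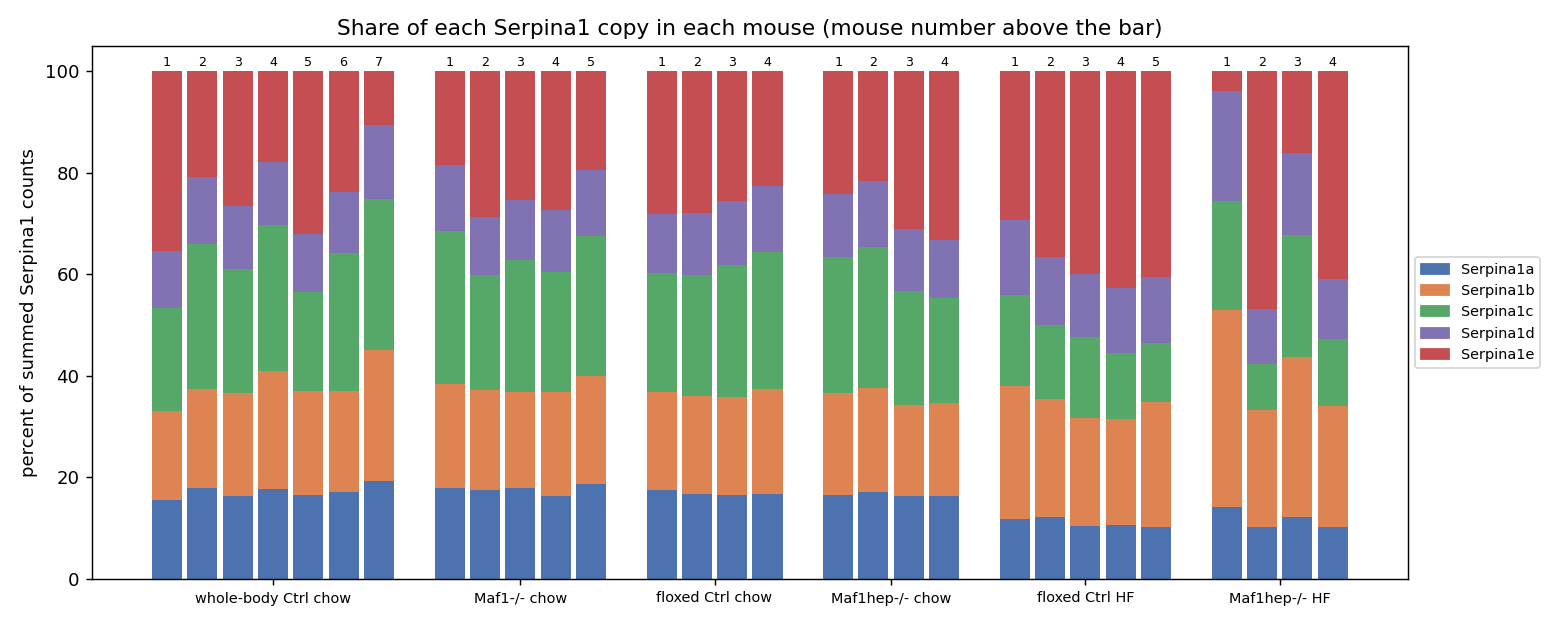
Share of each Serpina1 copy in the summed Serpina1 counts of each mouse. The vertical axis is percent, each bar is 1 mouse and bars are grouped by the 6 groups. Serpina1e ranges from 3.82% to 46.7%, and Serpina1a takes a smaller share in every HF-fed mouse than in any Chow-fed mouse.

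The deviations of Serpina1e from its group mean were then compared with those of its neighbours. Over the 29 mice they followed those of the summed other 4 copies with r = 0.59 and those of Serpina3k with r = 0.66. Within the 20 Chow-fed mice the values were 0.68 and 0.86, and within the 9 HF-fed mice 0.59 and 0.62. The other 4 copies followed Serpina3k with r = 0.78. These are descriptions over mice whose genes share a library and its scaling. Reads that fit several copies are also divided among them by estimation, and the part of this in the r between copies was not tested. In the pairs of single copies, Serpina1a and Serpina1e had r = 0.86 and Serpina1b and Serpina1d r = 0.86, while Serpina1c and Serpina1e had r = 0.11. Serpina6 ran the other way, with r = -0.47 to Serpina1e and -0.47 to Serpina3k, and Serpina3m was nearly unrelated to Serpina3n (r = -0.03).

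**Figure D4:**
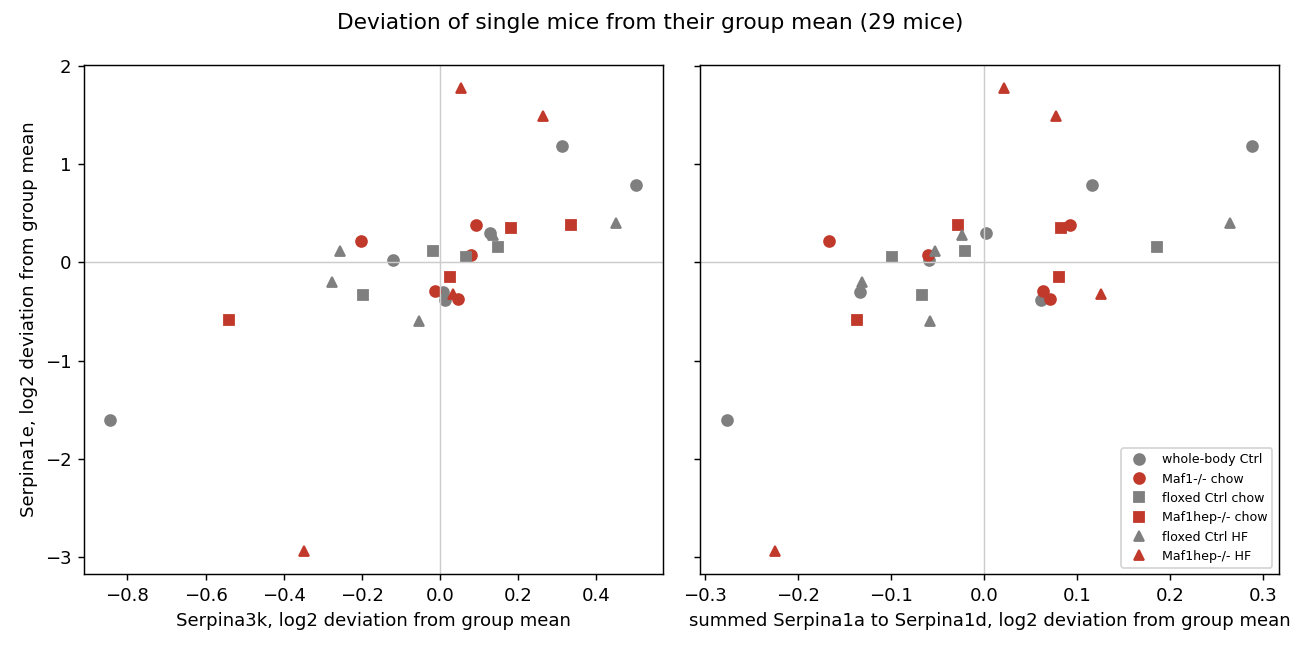
Deviation of Serpina1e from its group mean in each of 29 mice, against the deviation of Serpina3k (left) and of the summed other 4 Serpina1 copies (right). Axes are log2 CPM minus the group mean, colours mark genotype (grey Ctrl, red knockout) and shapes mark the 3 cohorts. The points run upward from left to right (r = 0.66 and 0.59), with HF-fed Maf1hep-/- mouse 1 lowest.

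Serpina3n moved with acute phase genes from mouse to mouse. Of 25 acute phase and IL-6 signalling genes, 17 had r of at least 0.5 with Serpina3n over the 29 mice after group means were subtracted, and the median r was 0.58. Of 12441 genes with a mean of at least 1 CPM, 2.07% had such an r with Serpina3n. Among the list, Saa1 (serum amyloid A) had r = 0.75, Orm1 (orosomucoid) 0.74, Hpx (hemopexin) 0.73 and Lcn2 (lipocalin 2) 0.71. Stat3, the transcription factor downstream of IL-6, had 0.60 and Socs3 0.56. Most other signalling genes were lower. The list genes below 0.5 were Cebpd (0.49), Crp (0.43), Apcs (0.39), Il6st (0.36), Cebpb (0.28), Il6ra (0.20), Jak1 (0.19) and Jak2 (-0.16). The same list of 25 held 3 genes at this level for Serpina1a (3.69% of all genes), 2 for Serpina1b (2.82%), 2 for Serpina1e (3.52%), 1 for Serpina1d (2.40%), 1 for Serpina3k (1.98%) and 0 for Serpina1c, Serpina3m and Serpina6. Of the 10 glucocorticoid receptor genes and targets, Serpina6 had r of at least 0.5 with 1 (1.94% of all genes) and of -0.5 or lower with 1 (1.22%), and the median r was -0.23.

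By likeness over the same 29 mice, with the 9 members left out of the ranking, the genes closest to the summed Serpina1 copies were Insc (r = 0.86), Tmem268 (0.85) and Nsun2 (0.82). Serpina3k was closer to Serpina1a (0.82) and Serpina1d (0.77) than to any gene outside the family, and of the latter its closest were Ces3b, C8b and Mrps18b (0.74, 0.74 and 0.73). For Serpina3n they were Tmem176a (0.77), Cpn2 (0.76) and Slc37a1 (0.76), and for Serpina6 Lgals1 (0.77), Naaladl2 (0.74) and Suclg2 (0.73). Each was taken from 12441 values as the highest outside the family and is named as a description.

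The diets were compared within genotype in 1 fit of all 29 mice. In Ctrl mice 4 of the 9 genes were lower on HF and none was higher, where edgeR called 25.6% of 12992 genes lower and 22.8% higher (48.4% in all). In Maf1hep-/- mice 4 were lower and 1 was higher, against 22.1% and 19.3% of all genes (41.4% in all). With so many genes called, such counts say little by themselves, but the sizes differed by gene. Diet cannot be told apart here from the sequencing run, since the HF-fed cohort was sequenced separately, at 150 cycles on 2 lanes, with lower totals.

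The 4 genes that fell were the same in both genotypes. Serpina1c had the largest fall of the 9, at -1.998 on the log2 scale in Ctrl mice (SE 0.16, adjusted p = 3.28e-11, edgeR) and -1.97 in Maf1hep-/- mice. Serpina1a followed with -1.84 (SE 0.14, adjusted p = 5.75e-12) and -1.89. In HF-fed mice of both genotypes Serpina1c ranged from 1382 to 2604 CPM, against 6456 to 9075 CPM in the Chow-fed mice of that line, which is a wide gap. Serpina1d was at -1.13 and -1.14 and Serpina1b at -0.99 and -0.80, again without overlap between the 9 HF-fed and the 8 Chow-fed mice. The order of the copies per kb changed with it. On chow, Serpina1c and Serpina1e led in every group, whereas by the group means of HF-fed mice Serpina1e led, followed by Serpina1b, and Serpina1a was last of the 5. In HF-fed Maf1hep-/- mice, however, Serpina1e was above Serpina1b in only 2 of 4.

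The summed copies fell as well, with -1.22 in Ctrl mice (SE 0.19, adjusted p = 9.01e-06) and -1.33 in Maf1hep-/- mice (SE 0.21, adjusted p = 8.53e-06). The 9 HF-fed mice had 7124 to 16395 CPM and the 8 Chow-fed mice 24684 to 34953 CPM. Under scaling by library totals, which shifted the median of all genes by 0.36 (Ctrl) and 0.30 (Maf1hep-/-), the values of the sum were -0.813 and -0.999. Serpina1e had a log2(FC) of -0.66 in Ctrl mice (SE 0.52, adjusted p = 0.298) and -1.14 in Maf1hep-/- mice (SE 0.55, adjusted p = 0.0985). The latter passed the threshold with DESeq2 (adjusted p = 0.0259) and without HF-fed Maf1hep-/- mouse 2 (-1.66, adjusted p = 0.0309).

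Markers of several cell types were also called with diet, and their part in these values was not tested. Of all genes, 22.8% were higher and 25.6% lower in Ctrl mice, and 19.3% and 22.1% in Maf1hep-/- mice. In Ctrl mice 6 of 11 Kupffer cell markers were higher and 1 lower on HF, with sums of 348 to 499 CPM against 232 to 310.1 CPM on chow. Stellate cell markers had 1 of 10 higher and 0 lower in Ctrl mice. Of the 9 hepatocyte markers 4 were lower and 1 higher there, with sums of 94098 to 109315 CPM against 95774 to 102760 CPM, which overlapped, and 4 of 5 erythroid markers were lower (54.9 to 95.2 CPM against 85.4 to 297 CPM). In Maf1hep-/- mice 4 Kupffer cell markers were higher and 1 lower (314 to 645 CPM against 248 to 350.2 CPM), 2 hepatocyte markers higher and 2 lower (115152 to 121265 CPM against 86375 to 108555 CPM), 6 of 10 stellate cell markers higher and 1 lower (440 to 539 CPM against 405 to 488 CPM), and 4 erythroid markers lower and 1 higher (58.1 to 151 CPM against 90.0 to 315 CPM).

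Outside the Serpina1 copies, only Serpina3n was called, with a log2(FC) of 0.62 in Maf1hep-/- mice (SE 0.20, adjusted p = 0.0146). The HF-fed knockouts had 402 to 542 CPM and the Chow-fed ones 222 to 317 CPM. That call was lost without Chow-fed mouse 2 (0.51, adjusted p = 0.0582) or HF-fed mouse 3 (0.51, adjusted p = 0.0576). In Ctrl mice its log2(FC) was 0.11 (SE 0.19), and library totals gave 0.53 (adjusted p = 0.0112). Serpina3m had -0.30 (SE 0.17) in Ctrl and 0.20 (SE 0.18) in Maf1hep-/- mice, the latter 0.53 with library totals (adjusted p = 0.0160). Serpina3k (-0.13 and -0.28) and Serpina6 (-0.15 and -0.10) were not called.

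**Figure D5:**
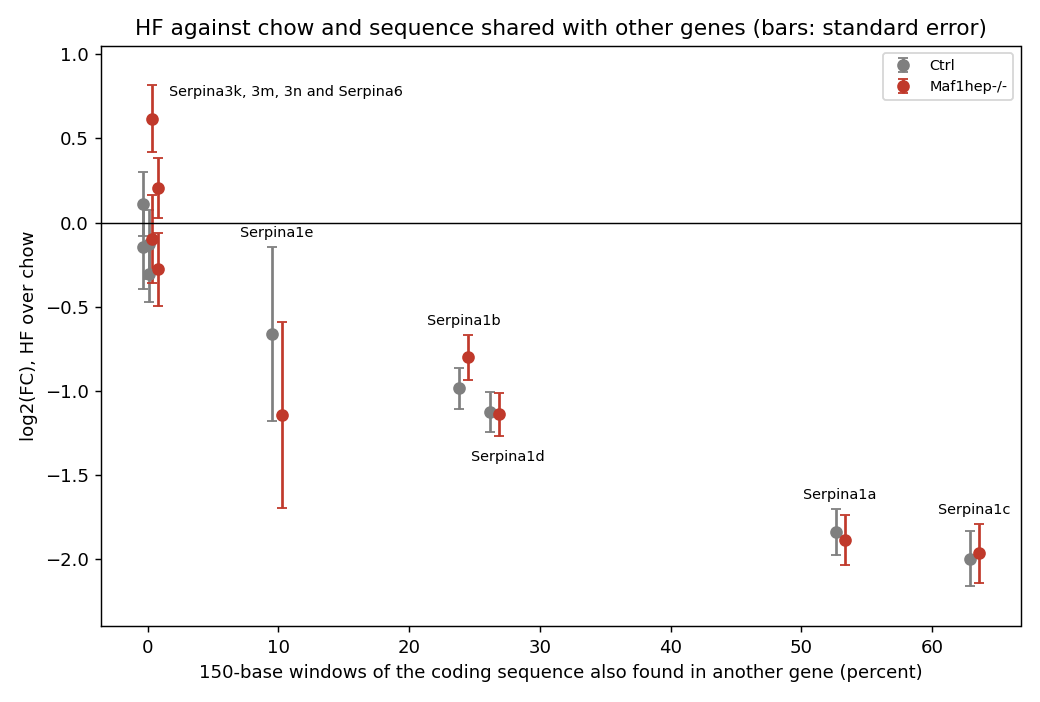
Diet effect on each of the 9 genes against the sequence it shares with other genes. The horizontal axis is the percent of 150-base windows of the coding sequence that also occur in another annotated gene, the vertical axis is log2(FC) of HF over chow, and bars are standard errors (grey Ctrl, red Maf1hep-/-, drawn slightly apart sideways). Serpina1c and Serpina1a, with 63.2% and 53.0% of windows shared, have the lowest values, and genes with under 1% lie between -0.30 and 0.62.

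In Ctrl mice the order of the 5 copies by their log2(FC) was that of their shared windows of 150 or 100 bases. With 50 bases, Serpina1a (83.9%) shared more than Serpina1c (81.1%). In Maf1hep-/- mice Serpina1e (-1.14) was outside that order, below Serpina1b. In both genotypes the pair of copies with the most shared windows at all 3 lengths fell furthest, and Serpina1c and Serpina1a, each other's closest relative, fell by nearly equal amounts. The deposited values of the Chow-fed and HF-fed libraries also differed in kind for these genes. In the 20 Chow-fed libraries none of the values of any Serpina1 copy was a whole number, as is usual for reads divided among genes by estimation, and Serpina3k and Serpina3m were whole in 1, Serpina3n in 5 and Serpina6 in 20. In the 9 HF-fed libraries every value was whole. Across all genes with a mean of at least 10 CPM, the 1268 genes with no whole value in Chow-fed libraries had a median log2(FC) of HF over chow of -0.24 in Ctrl mice, against 0.02 for the 4551 genes whole in all 20. At a mean of at least 1000 CPM, the medians were -0.99 for 47 genes and -0.15 for 54. The 5 Serpina1 copies are themselves among the 1268 and the 47 genes, so these medians are not independent of them. For Serpina1a to Serpina1d and for the summed copies, diet and the counting of shared reads cannot be told apart in these data.

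Beyond the 9 genes, 6 of 15 other Serpina genes of the cluster were among the genes measured. None passed an adjusted p of 0.05 between genotypes. In Maf1-/- mice all 6 were below 0, where 50.3% of all genes were above it, with a median log2(FC) of -0.42 against 0.00 for all genes, and Serpina11 had -0.54 (SE 0.20, adjusted p = 0.157). In HF-fed Maf1hep-/- mice 1 of the 6 had an unadjusted p under 0.05 (6.04% of all genes), Serpina3f with -0.67 (SE 0.21, adjusted p = 0.661). Serpina11 fell with HF, at -1.13 in Ctrl (adjusted p = 5.29e-05) and -1.26 in Maf1hep-/- mice (adjusted p = 4.16e-05), while Serpina3g rose in both (adjusted p = 0.0211 and 0.0308).

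Of 14 serpins elsewhere in the genome that were tested, none was called between genotypes. In HF-fed Maf1hep-/- mice, 3 of the 14 were higher and 1 lower at an unadjusted p under 0.05 (3.3% and 2.74% of all genes). Of the 14, 11 were above 0 (49.2% of all genes), and the median log2(FC) was 0.14. The lower one was Serpine2, which encodes a protease inhibitor also known as protease nexin 1, with a value of -1.29 (SE 0.33, adjusted p = 0.483). The acute phase list, to which Serpina3n was related above, had 6 of 25 genes higher at an unadjusted p under 0.05 in HF-fed Maf1hep-/- mice, where 3.3% of all genes were. Its median log2(FC) was 0.27, against 0.00 for all genes, and 20 of 25 were above 0, as were 49.2% of all genes. Apcs (serum amyloid P) had 0.91 (SE 0.17, adjusted p = 0.201) and Orm2 1.22 (SE 0.31, adjusted p = 0.472). In Chow-fed Maf1hep-/- mice the list had 0 of 25 at that threshold (2.39% of all genes) and a median of -0.11. In Maf1-/- mice 2 were higher and 3 lower (10.8% and 15.4% of all genes), with a median of 0.01.

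The 19 genes that fold, export or degrade alpha-1 antitrypsin had no call between genotypes. In Maf1-/- mice 7 of them were lower at an unadjusted p under 0.05 and 0 higher, where 15.4% of all genes were lower, and the median log2(FC) was -0.21. Derl3, a component of the machinery that moves misfolded proteins out of the endoplasmic reticulum, had -2.36 (SE 0.51, adjusted p = 0.152), and Surf4, a cargo receptor, -0.51 (SE 0.14, adjusted p = 0.152). On HF, 7 of the 19 fell and 1 rose in Ctrl mice (25.6% and 22.8% of all genes), and 4 fell and 1 rose in Maf1hep-/- mice (22.1% and 19.3%), among them the chaperone Calr (-1.39 in Ctrl mice). Of the 10 growth hormone signalling genes tested, 3 were lower at an unadjusted p under 0.05 in Maf1-/- mice, where 15.4% of all genes were. They included Onecut1 with -1.01 (SE 0.37) and Igfals with -0.82 (SE 0.31). In the hepatocyte cohorts 0 were lower, where 0.907% (Chow-fed) and 2.74% (HF-fed) of all genes were. None of the 6 proteases, the 10 glucocorticoid receptor genes and targets and the 11 liver-enriched transcription factors tested was called between genotypes. Of these 11 factors, 6 fell and 2 rose on HF in Ctrl mice, where Foxa2 had -1.93 (adjusted p = 5.44e-09), and 5 fell and 0 rose in Maf1hep-/- mice, against the same shares of all genes.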

How the data were processed

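Per the labels, the authors ran TrimGalore (0.6.4) and STAR (2.5.0a, mm10) before RSEM estimated the counts, and the deposited table holds unscaled expected counts for 12992 genes in 29 livers. HF-fed values were all whole numbers. The read length of the Chow-fed libraries, and whether their cohorts were sequenced together, are not given in the sources used here. After rounding, they were tested with edgeR 4.0.16, and with DESeq2 1.42.0 and limma 3.58.1 as alternatives (R 4.3.3). Each cohort was fitted alone (quasi-likelihood, TMM, genes with at least 1 CPM in 1 mouse), with Benjamini-Hochberg adjustment over all its genes and a threshold of 0.05. Interactions and diets were tested in 1 fit of 6 groups. The SE was taken as |log2(FC)| over the root of the F statistic. CPM per mouse used TMM over 29 mice, and correlations used log2 CPM (prior count 2). The tests were tested on simulated data. Whole values were read to within 1e-06. Coding sequences came from GENCODE vM21 and were aligned with MAFFT 7.526, and promoters came from RefSeq. Pairs of mice within a group differed well beyond counting error (chi-square per degree of freedom at least 29.2).

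The members and lists were chosen with earlier results of these data known. Of each other list, the text names up to 2 genes with the smallest p per comparison, and of 4 members the 3 genes most alike. Correlated list genes and Maf1 were chosen in addition. A gene that this rule names is not reported here. Same-numbered mice of the HF-fed cohort had r of 0.41, 0.12, 0.27 and 0.27 for pairs 1 to 4. However, Maf1hep-/- mouse 2 was most like Ctrl mouse 5, and mouse 3 most like Ctrl mouse 1. The authors state that their data were not paired, and no label gives a pairing.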

Additional observations from a re-analysis of the deposited data

Results flagged for a closer look

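Of 60 groups of mice examined for the 9 genes and the summed copies, 5 held a mouse far from the rest by Dixon's criterion, and chance gives about 1 in 20. Serpina3n gave 3 of them. HF-fed Maf1hep-/- mouse 3 had 542 CPM with the next at 426 CPM, Chow-fed floxed Ctrl mouse 1 had 507 CPM with the next at 288 CPM, and Chow-fed Maf1hep-/- mouse 2 had 222 CPM with the next at 305.0 CPM. Serpina1d was at 1543 CPM in HF-fed Maf1hep-/- mouse 1, where the next mouse had 1670 CPM. The summed Serpina1 copies were at 30030 CPM in Maf1-/- mouse 4, above the next at 26526 CPM. The low Serpina1e mice did not meet the criterion, because 2 of 4 were low. The causes were not tested.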

How the results depend on the processing

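Of 2106 recalculations covering 108 values under 41 settings, 1978 kept direction and side of the threshold, 81 changed sign, 40 moved, 5 newly passed and 2 lost the threshold. All sign changes were of values that had not passed. Those that moved were mostly shares of the copies, because a copy was left out of the total. The median Serpina1e share over 29 mice was 27.4%, and 31.2% with Serpina1d left out. Leaving out Serpina1e was an alternative chosen after seeing the data.

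For Serpina1e, limma-voom gave 0.10 in the whole-body cohort (0.10 and 0.12 with 1 and 3 RUVr factors) and -0.010 in Chow-fed hepatocyte mice (-0.010 and -0.017). With all 29 mice in 1 fit, the whole-body sum was -0.027 and Serpina1d -0.023. With library totals, the HF minus chow difference was -0.046 for Serpina1c and -0.027 for Serpina6. On that scale, HF against chow gave 0.27 for Serpina3k, 0.10 for Serpina3m and 0.24 for Serpina6 in Ctrl mice, and 0.054 for Serpina3k and 0.21 for Serpina6 in Maf1hep-/- mice. With the replicate block, the sum was -0.093 in the whole-body, -0.073 in the Chow-fed and -0.25 in the HF-fed hepatocyte cohort, and 0 of the 9 genes were called in each. The share of all genes called under the block is not given here. Under that block, Serpina1a was -0.024, Serpina1d -0.072 and Serpina3k -0.086 in the whole-body cohort, and Serpina1e -0.013 in Chow-fed and -1.19 in HF-fed hepatocyte mice. Outside the HF-fed cohort, same-numbered mice had r of both signs. The values were 0.34, -0.57, -0.28, -0.09 and -0.04 in the whole-body cohort, and 0.25, -0.34, -0.10 and -0.05 in Chow-fed hepatocyte mice. No pairing by number was seen there.

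Leaving out 1 mouse at a time, 0 to 1 genes of the 9 were called in the whole-body cohort. The 1 call was Serpina3m without Ctrl mouse 2, where 35.4% of 12792 genes passed. In the whole-body cohort the log2(FC) ran from -0.075 to 0.11 for the sum, -0.0022 to 0.13 for Serpina1a, -0.067 to 0.038 for Serpina1b, -0.041 to 0.084 for Serpina1d, -0.25 to 0.18 for Serpina1e and -0.038 to 0.16 for Serpina3k. In Chow-fed hepatocyte mice it ran from -0.12 to 0.014 for the sum, -0.096 to 0.20 for Serpina1e, -0.21 to 0.054 for Serpina3k, -0.26 to 0.077 for Serpina3m and -0.28 to 0.12 for Serpina3n, and in HF-fed mice from -0.33 to -0.017 for the sum and from -0.29 to 0.035 for Serpina1c. The HF minus chow difference ran from -0.26 to 0.071 for the sum, -0.13 to 0.068 for Serpina1a, -0.15 to 0.16 for Serpina1c, -0.081 to 0.055 for Serpina1d and -0.21 to 0.22 for Serpina6. The whole-body minus hepatocyte difference ran from -0.037 to 0.14 for the sum, -0.0091 to 0.13 for Serpina1d, -0.30 to 0.11 for Serpina1e, -0.0088 to 0.26 for Serpina3k and -0.036 to 0.37 for Serpina3n. HF against chow ran from -0.00086 to 0.41 for Serpina3n and -0.30 to 0.084 for Serpina6 in Ctrl mice, and -0.36 to 0.075 for Serpina6 in Maf1hep-/- mice. The fall of the sum kept its sign and its call (-1.31 to -1.15 in Ctrl, -1.48 to -1.15 in Maf1hep-/- mice).

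Limits are set by 4 to 7 mice per group, by the division of reads among near-identical copies and, for diet, by separate sequencing. The HF-fed libraries had the lowest totals. The causes were not tested.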
